A study of Mus musculus with 12 samples.

Results

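De novo lipogenesis makes fatty acids from carbohydrate, and 10 of its genes were followed here in the gastrocnemius muscle of germ-free mice that had received feces from trained or sedentary donors. In this pathway, citrate exported from mitochondria is split into acetyl-CoA in the cytosol, acetyl-CoA is carboxylated to malonyl-CoA, and fatty acid synthase joins these units into palmitate with electrons from NADPH. Elongases lengthen the product and desaturases place a double bond in it, and the transcription factors SREBP-1c and ChREBP switch the genes on when insulin or glucose is high. The pathway runs mainly in liver and fat in rodents, while skeletal muscle holds it at a lower level. The 10 genes were Acly, Acaca and Fasn of the core pathway, the desaturases Scd1 and Scd2, the elongases Elovl5 and Elovl6, the malic enzyme Me1, and Srebf1 and Mlxipl, which encode SREBP-1 and ChREBP. They were taken by name, as the measured features annotated with that single symbol, and they are 10 of 19938 genes and 12 of 28944 transcript clusters, the gene-level units of the array.

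The RT group held 6 recipients of feces from trained donors and the RS group held 6 recipients of feces from sedentary donors. All 12 were male germ-free ICR mice (strain Tsl;ICR[GF]), 11 weeks old by the labels, sampled 1 week after the first gavage, and in both groups the mice ate a high-fat diet, had repeated gavages of feces and were fasted before muscle was taken. Total RNA of each mouse was read on 1 Affymetrix Mouse Gene 1.0 ST array, and all values below are the deposited log2 signals after robust multi-array averaging (RMA). Recipients were caged together and gavaged with the same feces, so mice within a group cannot be treated as fully separate, and the effects of cage, feces batch and donor training cannot be told apart.

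Muscle identity was checked with 11 markers of muscle fibers, among them Ckm and Acta1. Their mean log2 signal was 12.11 to 12.21 in RT and 11.96 to 12.21 in RS, and limma called 0 of the 11 (0 at an unadjusted p under 0.05). Limma tested the difference of RT and RS for each transcript cluster, with calls made where the unadjusted p was below 0.05 and the p adjusted by Benjamini-Hochberg over the whole array was below 0.1, as in the methods. Over the array 3445 transcript clusters were higher and 3764 lower in RT, or 5883 and 2414 after each array was centered on its median. The RS-4 and RS-6 arrays had the smallest spread of signals (SD 1.97 and 1.99, against 2.06 to 2.15 on the other arrays) and lay apart on the first principal component. Calls without them are given for the lipogenic, further pathway and fat cell genes, and not for the other marker lists. In whole muscle, fewer cells of a type and less RNA per cell cannot be told apart.

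Of the 10 lipogenic genes, 8 were higher in RT and 0 lower, while 2, Me1 and Mlxipl, did not pass the test (at an unadjusted p under 0.05 also 8 higher and 0 lower). Scd1 had the largest change, 2.80-fold (95% interval 1.93 to 4.07), followed by Fasn at 1.96-fold (1.49 to 2.56) and Scd2 at 1.92-fold (1.38 to 2.67). The other 5 genes that passed, Elovl6, Acly, Acaca, Srebf1 and Elovl5, were 1.30-fold to 1.49-fold higher. Across the array 11.9% of transcript clusters were called higher and 13.0% lower. Bright signals were called higher more often, with 20.6% called higher and 10.7% lower in the brighter of the transcript clusters, against 3.21% and 15.3% in the dimmer, and 9 of the 10 lipogenic genes were among the brighter, Elovl6 being the exception. The median log2 change was 0.44 over the 10 genes and −0.01 over all transcript clusters. After a further quantile normalization or cyclic loess, 6 of the 10 were still called higher, with Elovl5 and Srebf1 below the threshold, and after centering each array on its median 8 were. Over the array 9.62%, 9.57% and 20.3% of transcript clusters were called higher in these settings, in that order. A one-way test of RT against RS without the moderated variance of limma, named the methods' test here, also called 6 of the 10, without Elovl5 and Srebf1. It called 10.1% of transcript clusters higher, with 2928 higher and 3039 lower. The counts reported by the authors over the array are closer to those of limma. The methods' test may therefore differ from the authors' own computation.

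**Figure D1:**
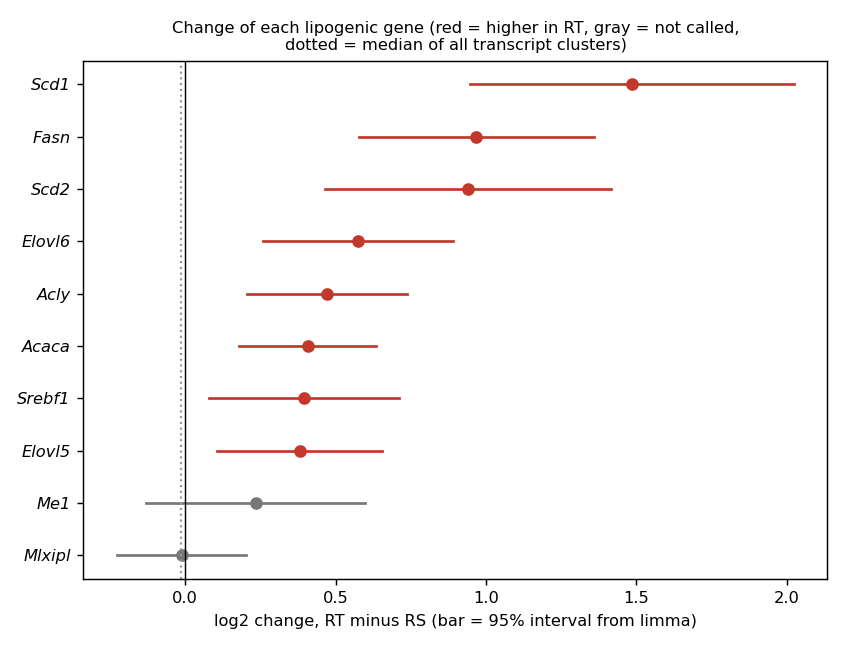
Log2 change (RT minus RS, x axis) of each of the 10 lipogenic genes with its 95% interval from limma, red where called higher in RT and gray where not called. Scd1 lies at 1.49, Fasn at 0.97 and Scd2 at 0.94, while the intervals of Me1 (−0.13 to 0.60) and Mlxipl (−0.23 to 0.20) include 0.

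The 3 genes of the core pathway were all higher in RT, and in Fasn and Acaca the lowest RT mouse lay above the highest RS mouse. Acly, ATP citrate lyase, which splits citrate into acetyl-CoA and oxaloacetate, had log2 signals of 5.80, 5.42, 5.62, 5.36, 5.76 and 6.21 in RT-1 to RT-6, against 5.32, 5.18, 5.46, 5.21, 5.03 and 5.14 in RS-1 to RS-6. The groups overlapped, since RT-2 and RT-4 lay below RS-3, and the other 4 RT mice lay above every RS mouse. RT exceeded RS by 0.47 on the log2 scale (standard error 0.13, adjusted p = 0.0216 from limma, exact permutation p = 0.00866). Acaca, acetyl-CoA carboxylase alpha, which makes the malonyl-CoA that both feeds synthesis and restrains the entry of fatty acids into mitochondria, had 6.36, 6.35, 6.28, 6.26, 6.34 and 6.87 in RT-1 to RT-6, against 6.06, 5.75, 6.18, 5.92, 6.08 and 6.03 in RS-1 to RS-6. Of the RT mice 5 lay within a narrow band and RT-6 stood above them. On average RT was higher by 0.41 on the log2 scale (adjusted p = 0.0208 from limma, standard error 0.11), and the exact permutation p of 0.00216 is the smallest that 6 against 6 mice can give. A dimmer second transcript cluster of Acaca did not pass, at 4.83 ± 0.20 in RT and 4.70 ± 0.24 in RS (SD, n = 6 each, adjusted p = 0.463 from limma). The call and the separation of the mice in Acaca are thus those of its brighter transcript cluster. Which of them measures the gene better was not tested.

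Fasn, the multi-domain enzyme that carries out the whole cycle of palmitate synthesis, showed the largest change among these 3. It had log2 signals of 6.60, 6.22, 6.28, 5.77, 6.40 and 7.36 in RT-1 to RT-6, against 5.48, 5.31, 5.70, 5.31, 5.47 and 5.55 in RS-1 to RS-6. The RS mice lay close together and the RT mice were spread out, with SDs of 0.53 in RT and 0.15 in RS. RT-4 was the lowest RT mouse and RT-6 the highest. The mean difference on the log2 scale was 0.97 (standard error 0.18, adjusted p = 0.00403 from limma, exact permutation p = 0.00216). Without RT-6 it was 0.78, and in none of the 12 fits that left out 1 mouse was the call of Fasn, Acaca or Acly lost. A separation of every RT mouse from every RS mouse, as in Fasn and Acaca, was found upward in 2.69% of all transcript clusters.

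**Figure D2:**
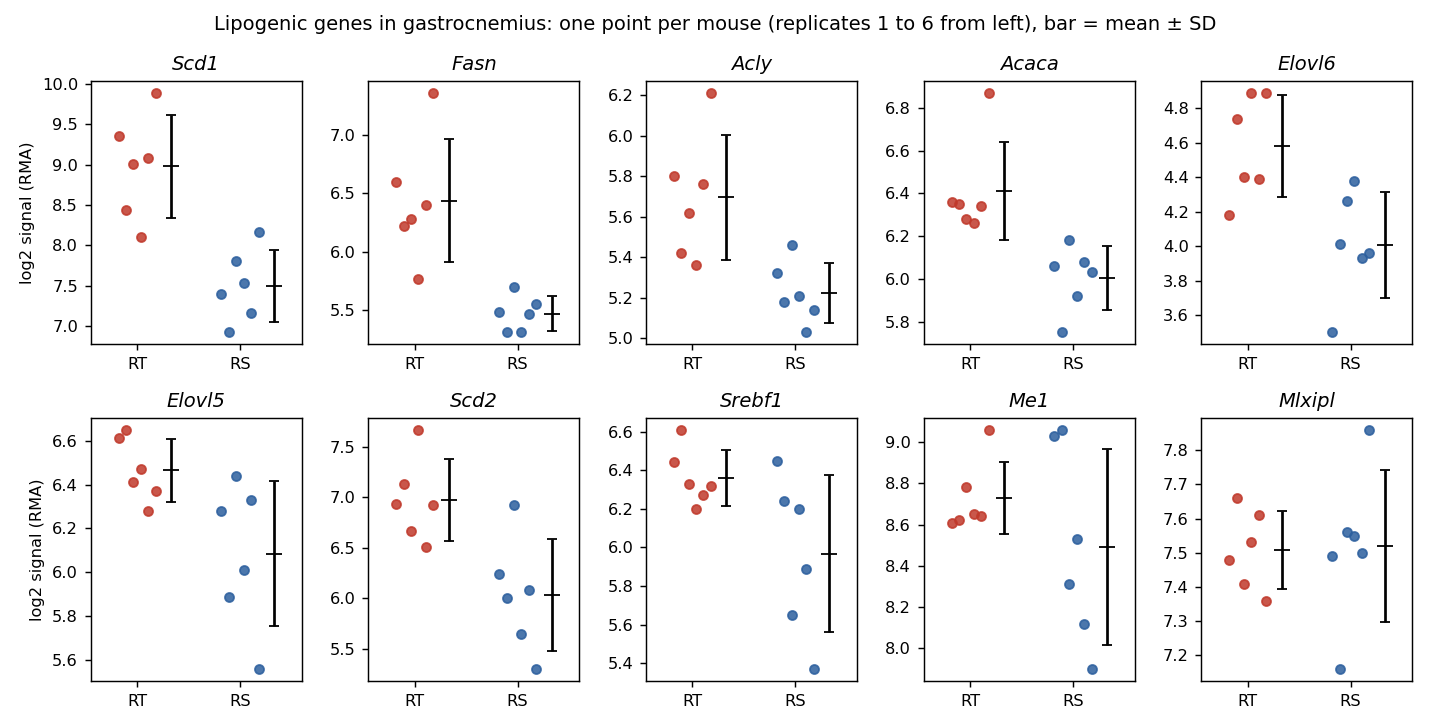
Log2 signal (y axis, RMA, a separate scale in each panel) of the 10 lipogenic genes, 1 point per mouse in replicate order from 1 to 6, RT in red and RS in blue, with the group mean and SD beside the points. In Fasn the 6 RT mice lie at 5.77 to 7.36, all above the RS mice at 5.31 to 5.70, while in Mlxipl the groups overlap.

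The desaturases Scd1 and Scd2, which put the double bond into stearoyl-CoA and palmitoyl-CoA and lie on chromosome 19, were both higher in RT, with a different order of the mice in each. Scd1, the main isoform of liver and fat, had log2 signals of 9.36, 8.44, 9.01, 8.10, 9.08 and 9.89 in RT-1 to RT-6, against 7.39, 6.92, 7.80, 7.53, 7.16 and 8.17 in RS-1 to RS-6. Only RT-4 fell within the RS range, below RS-6. The means were 8.98 ± 0.64 in RT and 7.50 ± 0.45 in RS (SD, n = 6 each), and the log2 change was 1.49 (standard error 0.25, adjusted p = 0.00235 from limma, exact permutation p = 0.00433). Scd2, the isoform abundant in brain and in the myelin-forming Schwann cells of nerve, had 6.93, 7.13, 6.67, 7.67, 6.51 and 6.92 in RT-1 to RT-6, against 6.24, 6.00, 6.92, 5.65, 6.08 and 5.30 in RS-1 to RS-6. RS-3 reached the level of RT-6 and lay above RT-3 and RT-5, so that 3 RT mice lay above all RS mice. RT exceeded RS by 0.94 on the log2 scale (standard error 0.23, adjusted p = 0.0134 from limma, exact permutation p = 0.00866), and it was 0.66 without RS-4 and RS-6, still called.

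RT-4, the mouse with the lowest Scd1 and Fasn of its group, had the highest Scd2. The mean log2 signal of 5 Schwann cell markers was 5.47, 5.87, 5.55, 6.17, 5.39 and 5.51 in RT-1 to RT-6, against 5.16, 5.39, 5.84, 5.69, 5.68 and 5.36 in RS-1 to RS-6. RT-4 and RS-3, the mice with the highest Scd2 of their groups, thus also had the highest Schwann cell marker level of their groups. Of the 5 markers 1 was higher in RT (Pmp22) and 1 lower (Sox10), against 11.9% higher and 13.0% lower over the array. The part of these markers in the Scd2 result was not tested. Neither Scd3 nor Scd4, relatives of Scd1 and Scd2, was called higher. Scd3, known from skin and the Harderian gland, had a mean log2 signal of 3.63 ± 0.19 in RT and 3.98 ± 0.26 in RS (SD, n = 6 each) and fell by 0.35 (adjusted p = 0.0572 from limma), a call that ended without RT-1, RT-6 or RS-6 (log2 changes of −0.31, −0.30 and −0.26). Scd4 changed by 0.08 and did not pass. Scd3 and Scd4 were both among the dimmer transcript clusters, of which 15.3% were called lower. Probes of near-identical relatives can share signal, so how the signal is divided among the Scd genes is uncertain.

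The elongases Elovl5 and Elovl6 were higher in RT by 1.30-fold and 1.49-fold. Elovl6, which lengthens palmitate to stearate, had log2 signals of 4.18, 4.74, 4.40, 4.89, 4.39 and 4.89 in RT-1 to RT-6, against 3.50, 4.01, 4.26, 4.38, 3.93 and 3.96 in RS-1 to RS-6. RT-1 was the only RT mouse within the RS range. On the log2 scale the mean difference was 0.58 (standard error 0.15, adjusted p = 0.0193 from limma, exact permutation p = 0.0108), and all 12 fits that left out 1 mouse kept the call. Elovl5, which lengthens polyunsaturated fatty acids, had 6.61, 6.65, 6.41, 6.47, 6.28 and 6.37 in RT-1 to RT-6, against 6.28, 5.89, 6.44, 6.01, 6.33 and 5.56 in RS-1 to RS-6. The lower RT mice and the upper RS mice overlapped, and RS-6 lay far below both. The log2 change was 0.38 (standard error 0.13, adjusted p = 0.0569 from limma, exact permutation p = 0.0238). This call ended without RT-1, RT-2, RS-2, RS-4 or RS-6 (log2 changes of 0.35, 0.34, 0.34, 0.37 and 0.28) and without both RS-4 and RS-6 (0.23), and the adjusted p ran from 0.0284 to 0.525 over all alternatives.

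Me1, the cytosolic malic enzyme that regenerates NADPH for fatty acid synthesis while turning malate into pyruvate, did not pass the test. It had log2 signals of 8.61, 8.62, 8.78, 8.65, 8.64 and 9.06 in RT-1 to RT-6, against 9.03, 9.06, 8.31, 8.53, 8.12 and 7.90 in RS-1 to RS-6. The RT mice lay within the range of the RS mice, which fell into a high pair, RS-1 and RS-2, and 4 lower mice. The log2 change was 0.24 (95% interval −0.13 to 0.60, adjusted p = 0.358 from limma, exact permutation p = 0.273). Its second transcript cluster followed the first closely over the 12 arrays (r = 0.997) and also did not pass, changing by 0.30 on the log2 scale (standard error 0.21, adjusted p = 0.331 from limma).

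Of the 2 transcription factors, Srebf1 was called higher and Mlxipl was not. Srebf1 encodes SREBP-1, which is released from the endoplasmic reticulum and drives Fasn, Acaca, Scd1 and its own gene. It had log2 signals of 6.44, 6.61, 6.33, 6.20, 6.27 and 6.32 in RT-1 to RT-6, against 6.45, 6.24, 5.65, 6.20, 5.89 and 5.37 in RS-1 to RS-6. Only RT-2 lay above every RS mouse, and the difference came with low values in RS-3, RS-5 and RS-6. The log2 change was 0.40 (standard error 0.15, adjusted p = 0.0818 from limma), and the exact permutation p was 0.0541. The call ended without RT-1, RT-2, RT-3, RT-6, RS-3, RS-5 or RS-6, where the log2 change was 0.38, 0.35, 0.40, 0.40, 0.33, 0.38 and 0.28, and the adjusted p ran from 0.0231 to 0.474 over all alternatives. It also ended without both RS-4 and RS-6. Whether the full-length protein was processed to its active form is not measured by the array. Mlxipl encodes ChREBP, which responds to sugar phosphates. It had 7.48, 7.66, 7.41, 7.53, 7.61 and 7.36 in RT-1 to RT-6, against 7.49, 7.16, 7.56, 7.55, 7.50 and 7.86 in RS-1 to RS-6. The RT mice lay inside the RS range, with a log2 change of −0.01 (95% interval −0.23 to 0.20, adjusted p = 0.948 from limma, exact permutation p = 0.922).

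SREBP-1 and ChREBP act at short motifs near the start of lipogenic genes, together with the ubiquitous factors NF-Y and Sp1, and the sequences before the starts were therefore searched. The RefSeq promoter table (GRCm38.p6) held 12 starts of 8 of the 10 genes, Scd1 and Scd2 being the others. In the 250 bases before each start, 4 motifs were searched on both strands: the E-box CACGTG, the sterol response element core TCACCCC, the CCAAT box that NF-Y binds, and the GC box GGGCGG that Sp1 binds. A CCAAT box was present at 6 of the 12 starts and a GC box at 5, while 33.8% and 32.7% of 32851 promoters of the same length held them. The E-box was present at 2 of 12, in Elovl5 and Mlxipl (6.02% of all promoters), and the sterol element core at 0 of 12 (4.31% of all promoters). The start of Acaca and that of Elovl6 held none of the 4 motifs. The window of Acaca, at chr11:84195188-84195437 on the plus strand, lies inside the gene, which begins at 84129635. The sequence before the beginning of Acaca was therefore not searched. Fasn, Acly and Elovl5 are shown as the genes called higher that held CCAAT boxes alone, GC boxes alone, and an E-box with CCAAT boxes, with the motif letters in capitals and a reverse-strand hit written as ATTGG or CCGCCC. Fasn, at chr11:120824548-120824797 on the minus strand, held CCAAT boxes 90, 62 and 59 bases before this start inside the gene, and the last pair overlaps in 1 run. Acly, at chr11:100528001-100528250 on the minus strand, held GC boxes 117, 88, 76 and 27 bases before its start. Elovl5, at chr9:77917115-77917364 on the plus strand, held the E-box 161 bases and CCAAT boxes 71 and 17 bases before its start.
Fasn: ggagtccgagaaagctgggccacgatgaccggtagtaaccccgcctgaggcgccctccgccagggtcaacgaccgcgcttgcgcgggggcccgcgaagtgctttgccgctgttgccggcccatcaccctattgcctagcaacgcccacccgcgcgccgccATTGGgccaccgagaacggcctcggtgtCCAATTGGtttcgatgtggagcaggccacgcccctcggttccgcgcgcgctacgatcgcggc
Acly: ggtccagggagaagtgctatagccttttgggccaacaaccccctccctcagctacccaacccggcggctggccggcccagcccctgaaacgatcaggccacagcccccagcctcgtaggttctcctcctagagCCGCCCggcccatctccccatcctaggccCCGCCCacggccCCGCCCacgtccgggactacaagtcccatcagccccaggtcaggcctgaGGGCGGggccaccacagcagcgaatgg
Elovl5: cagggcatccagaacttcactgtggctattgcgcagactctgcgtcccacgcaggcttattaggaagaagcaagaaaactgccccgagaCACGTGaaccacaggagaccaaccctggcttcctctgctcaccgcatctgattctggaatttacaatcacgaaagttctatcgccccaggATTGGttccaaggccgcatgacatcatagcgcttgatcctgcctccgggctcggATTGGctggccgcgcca
A motif match describes letters and not a site in use, and no match says only that these letters are not in the window.

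Around these 10 genes, 64 other genes of the pathway were measured of 70 listed, and 22 were higher in RT and 2 lower, while 40 did not pass, with a median log2 change of 0.17. One entry per gene was higher in 13.9% and lower in 10.7% of the 19938 genes of the array. Of the 64, 55 were in the brighter part of the array, where 20.6% were called higher. Of 9 genes of citrate export, acetyl-CoA supply and partners of acetyl-CoA carboxylase, 3 were higher. Thrsp, the thyroid hormone responsive gene also called Spot 14, which accompanies lipogenesis in liver and fat, had log2 signals of 6.26, 6.26, 6.25, 6.28, 6.28 and 6.70 in RT-1 to RT-6, against 5.72, 5.79, 5.74, 5.70, 5.45 and 5.44 in RS-1 to RS-6. The groups did not overlap, and the log2 change of 0.70 (standard error 0.10, adjusted p = 8.00e-04 from limma) remained called under all 26 alternatives run. Slc25a1, the carrier that exports citrate from mitochondria, had 5.79 to 6.73 in RT and 5.51 to 5.73 in RS, a log2 change of 0.38 (adjusted p = 0.0662 from limma) whose call ended without RS-4 (0.35), after quantile normalization (0.30) or cyclic loess (0.30), with array weights (0.32) and under the methods' test. Without RT-6, the highest RT mouse of Slc25a1 at 6.73, the change fell to 0.23 and was still called. Acacb, the carboxylase of the mitochondrial surface that muscle uses to control fatty acid oxidation, changed by 0.12 and did not pass.

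Besides Me1, 7 genes of NADPH supply were measured, and 4 were higher. Tkt, transketolase of the pentose phosphate pathway, had a mean log2 signal of 5.37 ± 0.22 in RT and 4.93 ± 0.12 in RS (SD, n = 6 each), without overlap (log2 change 0.44, adjusted p = 0.0107 from limma). Idh1, the cytosolic isocitrate dehydrogenase, rose by 0.45 (adjusted p = 0.0569 from limma), a call that ended without RT-1, RT-2, RS-4 or RS-6 (0.43, 0.44, 0.35 and 0.36). Among 17 further genes of elongation and desaturation, 5 were higher and 2 lower. Fads1, a front-end desaturase of polyunsaturated fatty acids, rose by 0.66 (adjusted p = 0.0268 from limma), and its change was 0.40 and no longer called without both RS-4 and RS-6. Hsd17b12, which reduces the intermediate that elongases make, had 4.95 ± 0.17 in RT and 4.45 ± 0.17 in RS (SD, n = 6 each) without overlap (log2 change 0.50, adjusted p = 0.00474 from limma). Elovl2, an elongase of liver and testis, fell by 0.37 (adjusted p = 0.0182 from limma). Its signals were dim, from 2.54 to 3.30, and in the dimmer part of the array 15.3% were called lower.

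Mitochondria have a fatty acid synthesis of their own, which serves lipoic acid, and 2 of its 5 measured genes were higher. Cbr4, a ketoacyl reductase, rose by 0.34 (adjusted p = 0.0326 from limma) and Oxsm, the ketoacyl synthase, rose by 0.35 (adjusted p = 0.0579 from limma), a call that ended without RT-2, RT-6, RS-5 or RS-6 (0.31, 0.29, 0.29 and 0.29). Of 16 genes of transcriptional control, all in the brighter part, 4 were higher, a share near the 20.6% of that part. Insig1 and Insig2, which hold the SREBP precursors in the endoplasmic reticulum, rose by 0.45 and 0.36 (adjusted p = 0.0428 and 0.0241 from limma). Both calls ended after a further quantile normalization (log2 changes of 0.34 and 0.23), that of Insig2 also after cyclic loess (0.23) and that of Insig1 under the methods' test. Insig1 is itself a target of SREBP. The 6 RT mice lay above every RS mouse in Insig2 and overlapped with them in Insig1. Srebf2, the related factor of cholesterol synthesis, changed by −0.04 and did not pass. Of 10 genes of fatty acid activation and esterification, 4 were higher, among them Acsl5, an acyl-CoA synthetase, by 0.51 (adjusted p = 0.0154 from limma). Dgat2, which completes triglyceride, rose by 0.48 (adjusted p = 0.0617 from limma), a call that ended without RT-1, RT-2, RT-6, RS-4 or RS-6 (0.43, 0.46, 0.47, 0.46 and 0.46).

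With both RS-4 and RS-6 left out, 9 of the 64 pathway genes were higher and 1 lower, and of all transcript clusters 5.70% were higher and 6.19% lower. Thrsp, Tkt, Hsd17b12, Insig2, Acsl5 and, downward, Elovl2 kept their calls. Besides Fads1, those that lost them were Slc25a1 (0.37), Idh1 (0.21), Scd3 (−0.22), Cbr4 (0.23), Oxsm (0.27), Insig1 (0.29) and Dgat2 (0.43), with the log2 change in the remaining 10 mice in parentheses. Quantile normalization also ended the calls of Idh1 (0.36), Scd3 (−0.23), Cbr4 (0.21) and Dgat2 (0.35), and cyclic loess those of Idh1 (0.34), Scd3 (−0.22) and Dgat2 (0.35). Centering each array on its median ended that of Scd3 (−0.27), and array weights that of Dgat2 (0.40).

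**Figure D3:**
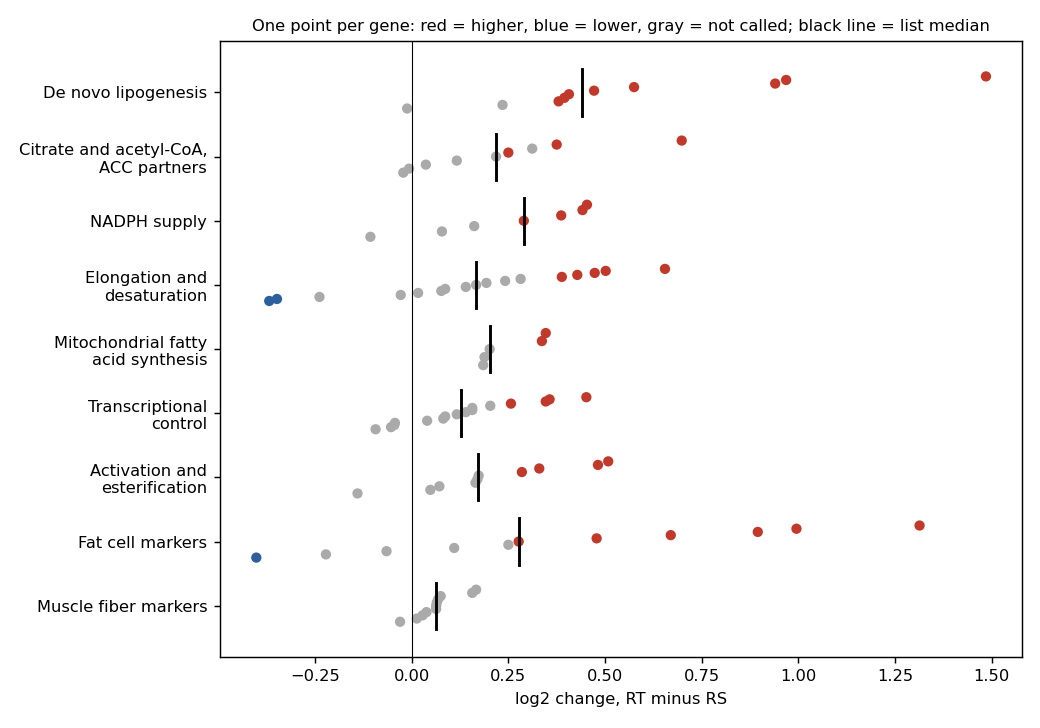
Log2 change (RT minus RS, x axis) of each measured gene in the lipogenic set, 6 further pathway lists and 2 marker lists, a point for each gene, colored red for calls upward, blue for calls downward and gray for no call, with the list median as a black line. The median is 0.44 for the lipogenic genes and 0.06 for the muscle fiber markers.

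Mice of a group differed from one another in the lipogenic genes. Among the RT mice, RT-6 had the highest value in 6 of the 10 genes (Fasn, Scd1, Acaca, Acly, Me1 and, tied with RT-4, Elovl6), and RT-4 the lowest in 5 (Fasn, Scd1, Acaca, Acly and Srebf1). Among the RS mice, RS-3 was highest in 5 genes, while RS-6 was lowest in 4 (Scd2, Elovl5, Srebf1 and Me1) and highest in 2 (Scd1 and Mlxipl). Over the 6 RT mice Fasn correlated with Acly (r = 0.965, exact permutation p = 0.00139, adjusted p = 0.0764, rho = 1.0, exact permutation p = 0.00278, adjusted p = 0.102). Without RT-4 and RT-6 the r was 0.869 over 4 mice. Fasn and Scd1 had an r of 0.944 (exact permutation p = 0.00417, adjusted p = 0.0917, rho = 1.0, exact permutation p = 0.00278, adjusted p = 0.102), or 0.870 without those 2. Over the 6 RS mice the r was 0.520 for Fasn and Acly (exact permutation p = 0.297, adjusted p = 0.681, rho = 0.348, exact permutation p = 0.494, adjusted p = 0.873) and of 0.629 for Fasn and Scd1 (exact permutation p = 0.175, adjusted p = 0.520, rho = 0.696, exact permutation p = 0.144, adjusted p = 0.611). Without RS-3 and RS-4 they were −0.0734 and 0.843, and the difference between the groups was not tested. Altogether 110 relations were computed, 55 in each group. Of these, 19 had a Pearson p under 0.05 by the exact permutation test and 0 had an adjusted p under 0.05. For Srebf1 and Fasn no such relation was seen over the RT mice (r = 0.0956, exact permutation p = 0.861, adjusted p = 0.992, rho = 0.143, exact permutation p = 0.803, adjusted p = 0.910, and r = −0.268 without RT-4 and RT-6).

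**Figure D4:**
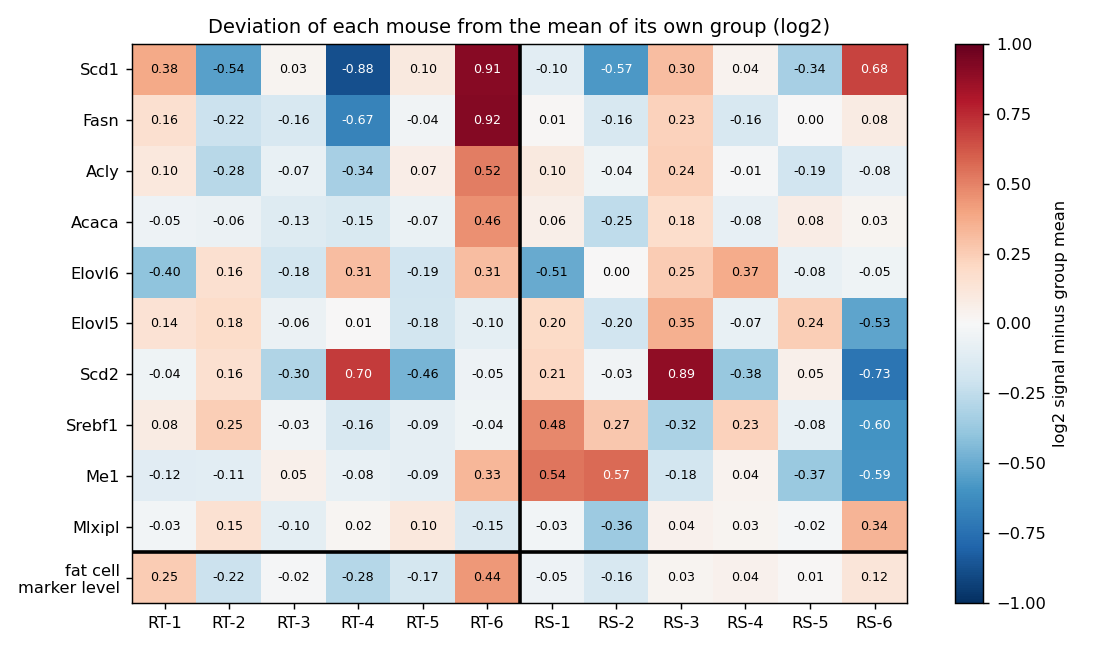
Log2 signal of each mouse minus the mean of its own group (color, red above and blue below the mean) for the 10 lipogenic genes and, in the bottom row, the mean of 11 fat cell markers, with the RT mice left of the RS mice. RT-6 deviates by 0.92 in Fasn and 0.91 in Scd1, and RT-4 by −0.67 and −0.88.

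Fat cells lie between muscle fibers and express lipogenic genes strongly, and some of their markers were also higher in RT. Of 11 measured fat cell markers 6 were higher in RT and 1 lower (Cidea, known from brown fat), while 4 did not pass, with a median log2 change of 0.28. Over the array 11.9% of transcript clusters were called higher and 13.0% lower. Of the 11 markers 7 were in the brighter part, where 20.6% were called higher. Adipoq, the adiponectin gene, had log2 signals of 5.62, 3.77, 4.48, 4.25, 4.08 and 6.01 in RT-1 to RT-6, against 3.53, 3.02, 3.47, 3.54, 3.39 and 3.38 in RS-1 to RS-6. RT-1 and RT-6 stood well above the other RT mice. Adipoq rose by 1.31, Retn (resistin) by 0.90 and Cidec, a lipid droplet protein, by 0.99 (adjusted p = 0.0103, 0.0119 and 0.0143 from limma). Lep, the leptin gene, rose by 0.48 (adjusted p = 0.0857 from limma), a call that ended without RT-1, RT-3, RT-6, RS-2, RS-4, RS-5 or RS-6 (0.44, 0.43, 0.31, 0.48, 0.50, 0.42 and 0.50). Plin1, the perilipin of the fat cell droplet, changed by 0.11 and Fabp4, the fatty acid binding protein of fat cells and endothelium, by 0.25, and neither passed (adjusted p = 0.626 and 0.146 from limma), although Fabp4 was called higher without RS-1 or RS-3 (0.31 each). The mean log2 signal of the 11 markers was 5.43, 4.96, 5.16, 4.89, 5.00 and 5.61 in RT-1 to RT-6, against 4.74, 4.63, 4.81, 4.83, 4.79 and 4.91 in RS-1 to RS-6. The groups overlapped only in RT-4 and RS-6. With RS-4 and RS-6 left out, limma called 5 markers higher, and Lep was not called (0.53), while 5.70% of the array was called higher.

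Over the 6 RT mice this marker level had an r of 0.908 with Fasn (exact permutation p = 0.00417, adjusted p = 0.0917, rho = 0.943, exact permutation p = 0.0167, adjusted p = 0.229). With Scd1 it had an r of 0.915 (exact permutation p = 0.00972, adjusted p = 0.134, rho = 0.943, exact permutation p = 0.0167, adjusted p = 0.229). Without RT-1 and RT-6, the mice farthest out in the marker level, these were 0.621 and 0.784. Over the 6 RS mice the r with Fasn was 0.489 (exact permutation p = 0.317, adjusted p = 0.711, rho = 0.377, exact permutation p = 0.467, adjusted p = 0.873), and −0.0685 without RS-2 and RS-6. With Scd1 the r in RS was 0.876 (exact permutation p = 0.0250, adjusted p = 0.196, rho = 0.886, exact permutation p = 0.0333, adjusted p = 0.306), and 0.413 without the same mice. Acly had an r of 0.895 in RT and −0.0489 in RS (exact permutation p = 0.0111 and 0.942, adjusted p = 0.136 and 0.992), a rho of 0.943 in RT and −0.0857 in RS (exact permutation p = 0.0167 and 0.919, adjusted p = 0.229 and 0.982), and without those mice an r of 0.594 in RT and −0.0499 in RS. Me1 had an r of 0.700 in RT and −0.862 in RS (exact permutation p = 0.0778 and 0.0208, adjusted p = 0.407 and 0.196), a rho of 0.257 in RT and −0.771 in RS (exact permutation p = 0.658 and 0.103, adjusted p = 0.873 and 0.505), and without those mice an r of 0.880 in RT and −0.700 in RS. With Scd2 the r was −0.308 in RT and −0.326 in RS (exact permutation p = 0.583 and 0.539, adjusted p = 0.866 and 0.853, rho = −0.486 in each group, exact permutation p = 0.356 and adjusted p = 0.850 in each), and −0.732 and −0.101 without those 2 mice of each group. For Mlxipl the sign also differed, with an r of −0.771 in RT and 0.967 in RS (exact permutation p = 0.0833 and 0.00278, adjusted p = 0.417 and 0.0917). Its rho was −0.771 in RT and 0.943 in RS (exact permutation p = 0.103 and 0.0167, adjusted p = 0.505 and 0.229), and r was −0.671 in RT and 0.842 in RS without the same mice. The differences between the groups were not tested, and no relation with the marker level had an adjusted p under 0.05.

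With the marker level of each mouse as a covariate, limma called 0 of the 10 lipogenic genes (6 at an unadjusted p under 0.05), and over the array 0.708% of transcript clusters were called higher. The log2 change was then 0.35 for Fasn, 0.61 for Scd1, 0.14 for Acly and 0.15 for Acaca. It was 1.17 for Scd2, 0.58 for Elovl6, 0.42 for Elovl5 and 0.51 for Srebf1. The first 4 were thus below their values without the covariate by more than 1.5 times and the last 4 were not. The marker level overlapped between the groups only in RT-4 and RS-6, so group and marker level cannot be fully told apart in this fit. The standard error grew for Scd2 (0.23 to 0.32) and Elovl6 (0.15 to 0.22) and fell for Fasn (0.18 to 0.16) and Scd1 (0.25 to 0.20). With the SD of each array as a covariate, Scd1 (1.50), Fasn (0.79) and Elovl6 (0.69) remained called, and over the array 2.53% were called higher. Scd2 (0.57), Acly (0.36), Acaca (0.30), Srebf1 (0.26) and Elovl5 (0.17) then lost their calls. With both RS-4 and RS-6 left out, calls remained for 6 lipogenic genes, at a log2 change of 1.66 for Scd1, 0.95 for Fasn, 0.66 for Scd2, 0.66 for Elovl6, 0.45 for Acly and 0.39 for Acaca, while 5.70% of the array was called higher.

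**Figure D5:**
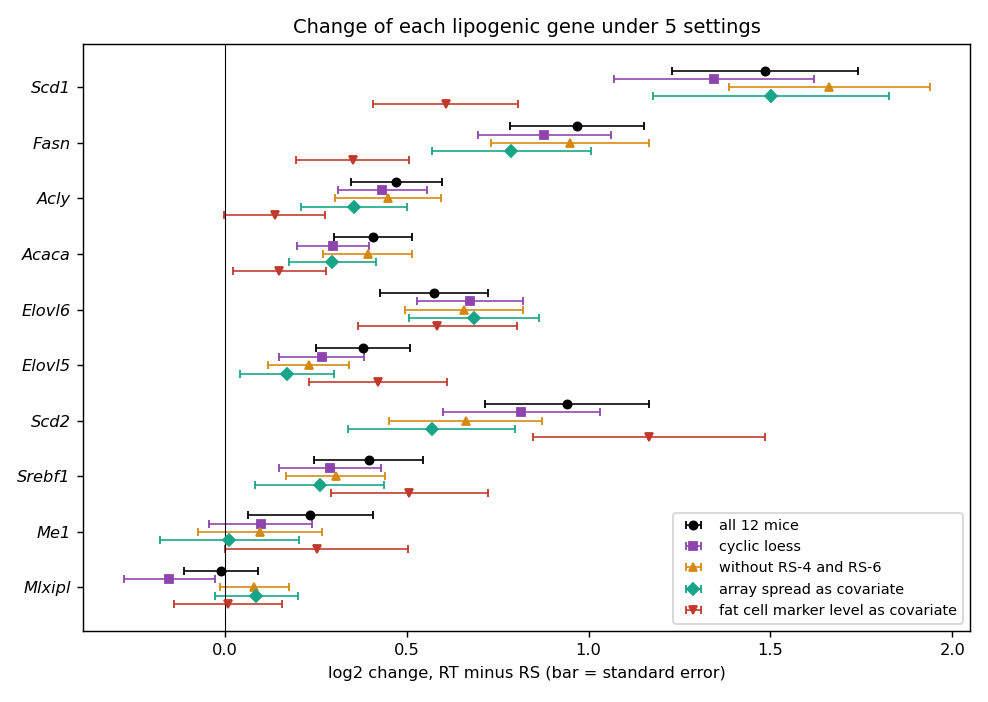
Log2 change (RT minus RS, x axis) with its standard error for each lipogenic gene in all 12 mice and under 4 other settings, shown by color and marker. With the fat cell marker level as a covariate Fasn lies at 0.35 and Scd1 at 0.61, against 0.97 and 1.49 in all 12 mice, and Scd2 lies at 1.17 against 0.94.

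Markers of other cells of muscle tissue moved as well. The mean log2 signal of 8 macrophage markers was 5.57 to 5.97 in RT and 4.87 to 5.38 in RS, with 7 of 8 called higher. Endothelial markers lay at 6.70 to 7.08 in RT and 6.21 to 6.61 in RS (5 of 7 higher), and fibroblast markers at 8.75 to 9.10 in RT and 7.61 to 8.77 in RS (6 of 6 higher). RS-4 and RS-6 had the lowest fibroblast marker levels (7.98 and 7.61, the next RS mouse being at 8.235). They were also lowest in the endothelial markers (6.23 and 6.21). Calls of these markers without RS-4 and RS-6 were not counted. Over the array 11.9% of transcript clusters were called higher, and 20.6% in its brighter part. The part of macrophages, endothelial cells and fibroblasts in the lipogenic genes was not tested. Markers of hepatocytes were dim in both groups, at 2.54 to 2.79 in RT and 2.64 to 2.96 in RS, with 1 of 5 called lower. In the dimmer part of the array 15.3% were called lower.

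The genes whose differences between mice of a group were most like those of Fasn, over 12 arrays with the group means removed and among 19928 genes, were Ccnb3 (r = 0.905), Cdo1 (0.898), 4930528A17Rik (0.869), Retn (0.868) and C1ra (0.865). Of these Cdo1, a cysteine dioxygenase, Retn and the complement protease gene C1ra were themselves higher in RT, by 0.57, 0.90 and 0.56. For Scd1 they were Sptssb (r = 0.921), Ptprz1 (0.913), Cidec (0.894), Anln (0.893) and Resf1 (0.887), and of these Cidec was higher in RT. Among all genes of the array 13.9% were called higher. The genes named are the highest of 19928 over only 12 arrays, where unrelated genes can also reach a high r, and this was not tested. All these values come from the same 12 RNA samples and share what varied between them.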

How the data were processed

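Gastrocnemius RNA of 12 mice, 6 RT and 6 RS, was measured on 1 array each. The deposited values are log2 signals of 28944 transcript clusters that the authors had normalized by RMA. Their methods name RMA in one paragraph and the SST-RMA variant in another, and the genome build is not given in the sources used here. RMA estimates signals over all arrays together and can compress the changes of dim features. Group and replicate number were taken from the labels, and the table held 0 columns of other samples. The number of arrays limits the precision. The p-values set the difference of RT and RS against the spread of mice within a group. Since recipients were caged together and given the same feces, that spread may lack variation between cages, feces batches and donors.

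Transcript clusters were named through the platform annotation: 21789 had 1 symbol, 1621 several and 5534 none, and 21698 were matched by gene identifier to a RefSeq table (0 symbols changed). A gene with more than 1 was represented by its brightest transcript cluster on average. The comparison of RT with RS used limma 3.58.1 (lmFit, eBayes) under R 4.3.3 and was checked on simulated data. Every adjusted p of a gene is from limma over all transcript clusters, two-sided. Exact permutation tests of the difference of means ran over all 924 splits, two-sided, and correlations over 720 pairings within a group, adjusted over the 110 relations. Promoter sequences are from RefSeq (GRCm38.p6).

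The genes, the pathway and marker lists and the tests were chosen with earlier results of these data known. Without a transcript cluster of their own, 13 of 140 listed genes were not analysed here. Named were the 10 genes, up to 2 called genes per direction with the largest change in each pathway list, 6 fat cell markers, and the 5 genes most like Fasn and Scd1. Acacb, Scd4, Srebf2, Cidea, Pmp22 and Sox10 were named in addition, after their values were seen. The 26 alternatives comprised a further quantile normalization, median centering, cyclic loess, leaving out the dimmest 33.3%, the methods' test, trend and robust, array weights, a replicate block, the array SD or fat cell marker level as a covariate, leaving out each mouse or both RS-4 and RS-6, a stricter threshold, transcript clusters with 1 symbol, and the mean of transcript clusters.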

Additional observations from a re-analysis of the deposited data

Results flagged for a closer look

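Acaca in RT-6 was far from the other RT mice. Its log2 signal was 6.87, and the nearest RT mouse had 6.36, a gap that took up 0.836 of the range of the 6 mice, above Dixon's 95% limit. It was 1 such value among the 20 groups of mice examined, 10 genes in each of RT and RS, where chance alone gives about 1. Without RT-6 the log2 change of Acaca was 0.31 and still called. RT-6 was also the highest RT mouse in Fasn, Scd1 and Acly and had the highest fat cell marker level, 5.61.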

How the results depend on the processing

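The number of the 10 lipogenic genes called higher was 8, and 6 to 8 when 1 mouse was left out. Over the array, the share called higher in the fits without 1 mouse ran from 8.15% (without RT-6) to 15.8% (without RS-1). The methods' test called 6 lipogenic genes, 15 further pathway genes and 5 fat cell markers higher, and ended the calls of Elovl5, Srebf1, Slc25a1, Idh1, Scd3, Oxsm, Insig1, Dgat2 and Lep. The number of lipogenic genes was 3 with the array SD as a covariate and 0 with the fat cell marker level as a covariate (limma, 6 at an unadjusted p under 0.05 in each). The 22 further pathway genes called higher became 12 after quantile normalization, 14 after cyclic loess, 3 with the array SD, 1 with the fat cell marker level, 9 without RS-4 and RS-6 and 14 at an adjusted p under 0.05, and 16 to 28 when 1 mouse was left out. Over the array 9.62% were called higher after quantile normalization, 9.57% after cyclic loess and 7.23% at an adjusted p under 0.05. The 6 fat cell markers called higher became 2 with the array SD and 0 with the fat cell marker level, and 4 to 7 when 1 mouse was left out. The log2 change of Mlxipl was 0.0633 after median centering, 0.0102 with array weights, 0.0866 with the array SD, 0.0089 with the fat cell marker level and 0.0808 without RS-4 and RS-6, and ran from −0.0837 to 0.0563 when 1 mouse was left out. With the fat cell marker level Plin1 changed by −0.28 and Lep by −0.14. Mice with the same replicate number in RT and RS did not deviate together (correlations of −0.24 to 0.11, 1 of 6 closest to its own number), and with the replicate block 8 lipogenic genes, 20 further pathway genes and 5 fat cell markers were higher. The replicate block called 9.93% of the array higher. Over the array, calls higher and lower were 732 and 888 with the array SD, 205 and 394 with the fat cell marker level, and 1649 and 1791 without RS-4 and RS-6. Scaling moved the median of all transcript clusters to at most 0.06. The cause of these changes was not tested. Dim transcript clusters limit what can be said of genes such as Scd4 and Elovl2.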
